A study of Mus musculus with 4 samples.

Results

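Adult alveolar type I (AT1) cells were taken from the single mouse lung library sorted for AT1 cells at postnatal day 60 (P60). A cell was kept when its summed level of 8 AT1 genes (Ager, Hopx, Pdpn, Aqp5, Rtkn2, Clic5, Akap5 and Emp2) reached at least 0.5 of the median of that sum over all cells of the library. This kept 1220 of 1337 cells, or 91.3% (exact Clopper-Pearson 95% interval 89.6 to 92.7), out of 9519 cells in the 4 libraries of the series. The median sum was 380.4 per 10000 unique molecular identifiers (UMIs, the count of captured transcript molecules) of a cell, which put the cut at 190.2. The 3 lowest cells inside stood at 201.9, 202.5 and 208.6, and the 3 highest outside at 175.7, 174.8 and 172.4, so 6 cells lay within 10% of the cut. The levels of these 8 genes chose the cells and are given below as a description only.

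The mice were of mixed FVB and C57BL6 strain, carried Sftpc-CreER, a Rosa26-Zsgreen reporter and a Hopx-RFP reporter, and received tamoxifen. AT1 cells were sorted as RFP-positive, Pdpn-positive, GFP-negative and CD45-negative, so the gate itself asked for Hopx reporter and surface Pdpn, and it removed white blood cells and cells that carried the Sftpc lineage label. Further libraries of the series held AT1 cells sorted in the same way at P3 and P15, and GFP-positive, CD45-negative cells, the alveolar type II (AT2) sort, at P60. All 4 groups carried the same alleles and tamoxifen, the AT2 lungs were dissociated with neutral protease and DNase I alone, and no source used here gives the number of animals behind a library. With 1 library per group there was no replicate and no test was made. Intervals below are exact, at 95%, and allow for counting error alone.

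AT1 cells are very large, thin epithelial cells that cover most of the alveolar surface and let oxygen and carbon dioxide pass to the capillaries beneath. They share a fused basement membrane with the endothelium, seal the airspace with tight junctions, move sodium and water, and send growth factors such as Vegfa to the capillaries. AT2 cells, their cuboidal neighbours, make surfactant and can give rise to AT1 cells.

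The 1220 cells held 6851433 UMIs, with 1159 to 23064 per cell (median 5493) and 2211 genes detected in the median cell. The mitochondrial share of a cell ran from 0.254 to 9.94%, with a median of 3.02%. The 117 cells outside the class were shallower, with a median of 2641 UMIs, and their median AT1 sum was 63.3 per 10000 UMIs against 389.5 in the class. Of the barcodes of the 1220 cells, 14 also occurred in another library.

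**Figure D1:**
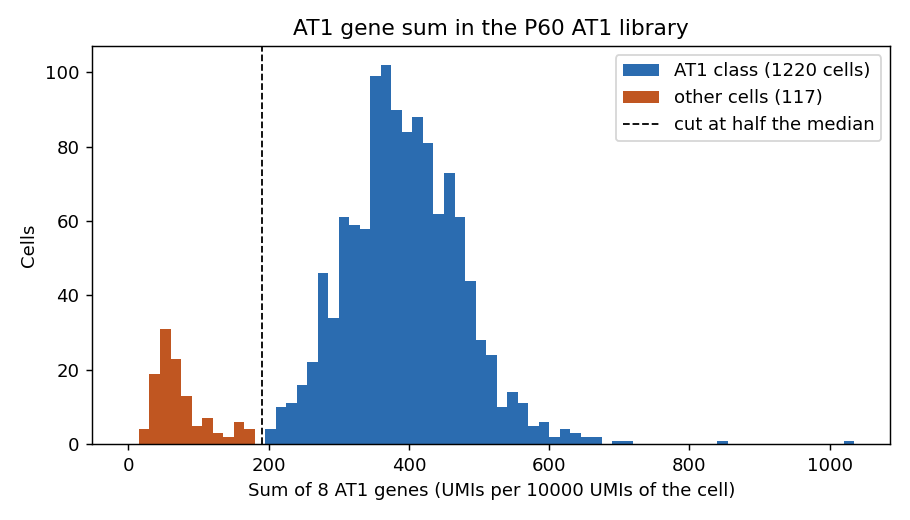
Number of cells (vertical axis) by the summed level of the 8 AT1 genes in UMIs per 10000 UMIs of the cell (horizontal axis), with the 1220 cells of the class in blue and the 117 others in orange. The dashed line is the cut at 190.2, which lies in a sparsely filled gap between the groups.

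Genes that the rule did not use are given here as a description of the class. All 30 of 30 further AT1 genes on a fixed list stood at 50 CPM (UMIs scaled to a total of 1000000) or more. Of these, 23 stood at 500 CPM or more. That list was drawn up with AT1 expression in mind and with earlier results of these data known. Its count therefore cannot test the label. Over the whole file 3154 of 11561 listed genes, or 27.3%, reached 50 CPM, and the list's median was 1146 CPM beside 20.7 for all genes. Igfbp2 and Cyp2b10, the markers outside the rule, read 1993 CPM (1960 to 2027) and 1725 CPM (1694 to 1756). Several defining genes of other cell types were low. Cldn5, Cdh5 and Pecam1 of endothelium read 8.76, 5.40 and 11.4 CPM, Col1a1 of fibroblasts 0.584 CPM, and Ptprc, which encodes CD45, 2.19 CPM.

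Other genes on the marker lists of other cell types were not low, and no doublet caller was run. The 18 AT2 markers summed to 541.2 CPM and the 14 listed immune markers to 293.4 CPM, and 453 cells held 3 or more AT2 markers, 71 of them 5 or more. There were 127 cells with 3 or more immune markers, 49 with 3 or more endothelial markers, 257 with 3 or more club markers and 771 with 3 or more ciliated markers. The endothelial sum of 377.1 CPM came mainly from Esam at 306.4 CPM. Summed fibroblast and smooth muscle markers stood at 25.5 and 12.3 CPM. The ciliated list summed to 3020 CPM, nearly all from Sec14l3 (1542 CPM), Tppp3 (1211 CPM) and Tubb4b (254.7 CPM), while Dynlrb2 and Cfap126 stood at 5.84 and 2.34 CPM. The club cell gene Scgb1a1 read 1069 CPM in the class.

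To set a background, each cell was thinned at random to 2000 UMIs, which left 1103 AT1 cells and 25 of the 38 endothelial cells outside the class, cells with at least 3 endothelial markers. Scgb1a1 gave a UMI in 87.0% of AT1 cells (84.9 to 89.0) and in 88.0% of the endothelial cells (68.8 to 97.5). The surfactant gene Sftpc gave 36.0% (33.2 to 38.9) and 28.0% (12.1 to 49.4), and Cd74, the invariant chain of MHC class II, 13.4% (11.5 to 15.6) and 28.0% (12.1 to 49.4). Before thinning the shares in AT1 cells were 96.5, 63.7 and 33.6%. The intervals of these 3 genes after thinning overlapped those of the endothelial cells, and their UMIs are not read as expression by AT1 cells. Overlap does not show that UMIs are background, since 25 endothelial cells give wide intervals. Ager too gave a UMI in 100% of AT1 cells and 100% of endothelial cells. Igfbp2 gave 90.3% of AT1 cells (88.4 to 92.0) against the same 28.0%, and Vegfa 97.0% (95.8 to 97.9) against 40.0% (21.1 to 61.3), and before thinning they gave 95.1 and 98.6% of AT1 cells. The endothelial cells lie below the cut by construction, which limits the AT1 gene levels that they could hold. Median depths before thinning were 5493 UMIs in the class and 2874 in the endothelial cells.

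A few transcripts took a large part of the RNA. Malat1, a long noncoding RNA of the nucleus, made up 15.8% of all UMIs, and the receptor gene Ager 2.22%, the highest share of any protein-coding gene. The 8 rule genes together took 4.04%, the mitochondrial genome 3.03% and the ribosomal protein genes 4.77%. The 10 highest genes held 23.8% of all UMIs and the 100 highest 39.0%. The 3' chemistry counts transcript ends, so CPM values of different genes are compared below as molecules captured and are not divided by length.

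Below Malat1 and Ager (22202 CPM) stood Tmsb4x, an actin monomer-binding peptide gene, at 12621 CPM, and Actb, cytoplasmic beta-actin, at 12037 CPM. Hopx, a homeodomain-only protein gene and the reporter locus, read 5939 CPM, and Prdx6, a peroxiredoxin with phospholipase activity, 5692 CPM. The matrix gene Sparc stood at 4567 CPM, the calcium-binding gene S100a6 at 4043 CPM and Emp2, a 4-pass membrane protein gene, at 3813 CPM. Between 3449 and 2686 CPM followed Timp3, a tissue inhibitor of metalloproteinases, Igfbp7, the water channel gene Aqp5, the ferritin gene Fth1, Cldn18, Crip2 and Igfbp6. Myl12a, Eif1, Clic3, Gprc5a, Pmp22, Neat1, Vegfa, Vamp8 and Krt7 filled the range from 2451 to 2068 CPM. Ribosomal protein, mitochondrial, haemoglobin and provisional symbols were left out of these 25 names.

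Of 18 listed genes of the junctions that seal the airspace 15 reached 50 CPM and 3 reached 500 CPM, with a list median of 185.7 CPM. Beside this and each list count below stands the 27.3% of all listed genes that reached 50 CPM. Their median extra CV, a measure of spread between cells defined below, was 0.265, near the 0.293 of all genes. Cldn18, the main claudin of the alveolus, stood at 2969 CPM and had a UMI in 99.5% of cells, while Cldn7 read 187.7 CPM, Cldn3 2.77 CPM and Cldn4 was not listed. F11r, an adhesion molecule of the tight junction, read 738.4 CPM, and the E-cadherin gene Cdh1 367.5 CPM. The junction scaffold Tjp1 and occludin gene Ocln stood at 209.0 and 143.3 CPM, so Cldn18 alone exceeded all other genes of this list taken one by one.

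Among 17 listed ion and water transport genes 12 reached 50 CPM. The 3 subunit genes of the epithelial sodium channel were of a like order, with Scnn1a at 614.6 CPM (596.2 to 633.5), Scnn1g at 567.2 (549.5 to 585.3) and Scnn1b at 433.2 (417.7 to 449.1), and their intervals did not overlap. The sodium pump subunit gene Atp1b1 read 223.2 CPM, below the channel subunits. Of the water channels, Aqp5 stood at 3048 CPM (3007 to 3090), and a UMI of it was found in 98.7% of cells. Aqp1, a channel of endothelium, read 18.1 CPM against 2100 CPM in the endothelial cells, Aqp4 read 2.77 CPM, and Aqp3 was not listed. The chloride intracellular channel genes Clic3 and Clic5 read 2306 and 1666 CPM, while their relative Clic1 stood at 26.3 CPM.

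Caveolae, flask-shaped pits of the plasma membrane that buffer stretch, are dense in AT1 cells and in endothelium. Of the 12 distinct genes on the caveola and membrane scaffold list 11 were listed, some under older symbols, and 10 reached 50 CPM. The caveolin genes Cav1 and Cav2 read 1269 and 1018 CPM. The cavin genes Sdpr, Ptrf and Prkcdbp, which shape the caveola coat, read 1233, 432.6 and 299.2 CPM. The endothelial cells held Cav1 at 1150, Cav2 at 1083, Sdpr at 1500 and Ptrf at 441.7 CPM, so these 4 genes were of the same order in both cell types. Emp1, a relative of Emp2, stood at 1.46 CPM.

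Cytoskeletal genes formed the largest list of protein-coding genes by counts, with 26 of 27 at 50 CPM or more and a sum of 44869 CPM. Next to Tmsb4x and Actb stood Myl12a and Myl6, regulatory and essential light chains of non-muscle myosin, at 2451 and 1623 CPM. The simple keratins differed in level, with Krt7 at 2068 CPM, Krt19 at 825.2, Krt8 at 501.4 and Krt18 at 428.8. The scaffold genes Ahnak, Limch1 and Lmo7 ranged from 1692 to 1510 CPM. Rtkn2 and Akap5, a rhotekin and a kinase-anchoring protein gene of the rule, read 1253 and 1160 CPM. Vim, the intermediate filament of mesenchyme and endothelium, read 8.47 CPM in the class and 583.4 in the endothelial cells.

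Of 22 listed basement membrane and matrix genes 18 reached 50 CPM. The chains of collagen IV, the network of the basement membrane, were led by Col4a4 at 1112 CPM (1088 to 1138) and Col4a3 at 992.6 (969.2 to 1017). Col4a2 and Col4a1 followed at 603.2 and 523.5 CPM, Col4a5 at 187.7 and Col4a6 at 18.1. Adult AT1 cells thus held more UMIs of the alpha-3 and alpha-4 chains than of the common alpha-1 and alpha-2 chains. The laminin chain genes Lamb3 and Lama3 lay close together at 210.2 and 202.1 CPM. Npnt, a ligand of integrins, read 618.1 CPM, and the proteoglycan genes Hspg2 and Agrn read 444.6 and 268.4 CPM. The linker gene Nid1 was near 0, at 0.146 CPM.

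On the receptor side, 12 of 16 listed integrin and adhesion genes reached 50 CPM. Cd9, a tetraspanin, led with 1470 CPM, and the beta-1 and beta-6 integrin genes Itgb1 and Itgb6 read 371.3 and 310.3 CPM. Among alpha chains, Itga3, a laminin receptor chain, stood at 265.8 CPM and Itgav at 75.3, whereas Itga6 and Itga1 stood at 2.63 and 0.292 CPM. The focal adhesion genes Tln1 and Vcl read 243.2 and 177.3 CPM.

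Secreted signals were led by Vegfa, the growth factor of capillary endothelium, at 2172 CPM (2137 to 2207). Its level in a cell had a median of 2120 CPM, with 721.8 at the 5th and 4499 at the 95th percentile, and 17 of 1220 cells held no UMI of it. Pdgfa, a signal to fibroblasts, read 817.2 CPM and Ndnf, a secreted neurotrophic factor gene, 716.1 CPM. The semaphorins Sema3e, Sema3a and Sema3b, which guide vessels and nerves, read 476.7, 281.8 and 259.4 CPM. Of this list 17 of 23 listed genes reached 50 CPM, among them the Wnt ligands Wnt7a (97.2 CPM) and Wnt3a (91.5 CPM) and the growth factor genes Fgf18 (54.3 CPM) and Bmp4 (128.4 CPM). Shh, the hedgehog ligand, stood at 26.7 CPM. Edn1 and Efnb2, endothelial signals, were low at 1.17 and 5.98 CPM.

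The insulin-like growth factor (IGF) axis was represented by binding proteins and not by ligands. Igfbp7, Igfbp6 and Igfbp2, which encode secreted proteins that bind growth factors, read 3397, 2686 and 1993 CPM, while Igfbp5, Igfbp4 and Igfbp3 read 4.96, 1.17 and 0.584 CPM. The ligand gene Igf1 stood at 0.292 CPM and Igf2 was not listed. Receptor genes were low beside the binding proteins, with Igf1r at 175.0, Igf2r at 87.6 and Insr at 31.8 CPM. Igfbp7 also read 2758 CPM in the endothelial cells, against 408.4 for Igfbp6 and 225.0 for Igfbp2 there.

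The highest levels on the xenobiotic list were those of 2 cytochrome P450 enzymes. Cyp2b10, on the plus strand of mm10 chromosome 7 from 25897620 to 25926624, read 1725 CPM, and Cyp4b1, on the minus strand of chromosome 4 from 115624725 to 115647723, read 1420 CPM (1392 to 1448). Close relatives of Cyp2b10 lie in the same gene family, and no source used here says how reads shared between them were counted. The electron donors Por and Cyb5a read 119.8 and 609.4 CPM. Cyp2f2, Cyp2s1 and Cyp1a1 stood at 9.63, 0.876 and 0.146 CPM, and 10 of 18 listed genes of the list reached 50 CPM. After thinning, Cyp2b10 had a UMI in 93.8% of AT1 cells (92.2 to 95.2), 52.0% of endothelial cells (31.3 to 72.2) and 6.47% of the 2009 cells of the AT2 library. Cyp4b1 had one in 87.1% (85.0 to 89.0), 80.0% (59.3 to 93.2) and 0.647%, and it read 1150 CPM in the endothelial cells, close to the AT1 level. Its share in AT1 cells overlapped that in endothelial cells, so this background does not set its UMIs apart. Before thinning the shares in AT1 cells were 96.8% for Cyp2b10 and 94.8% for Cyp4b1.

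**Figure D2:**
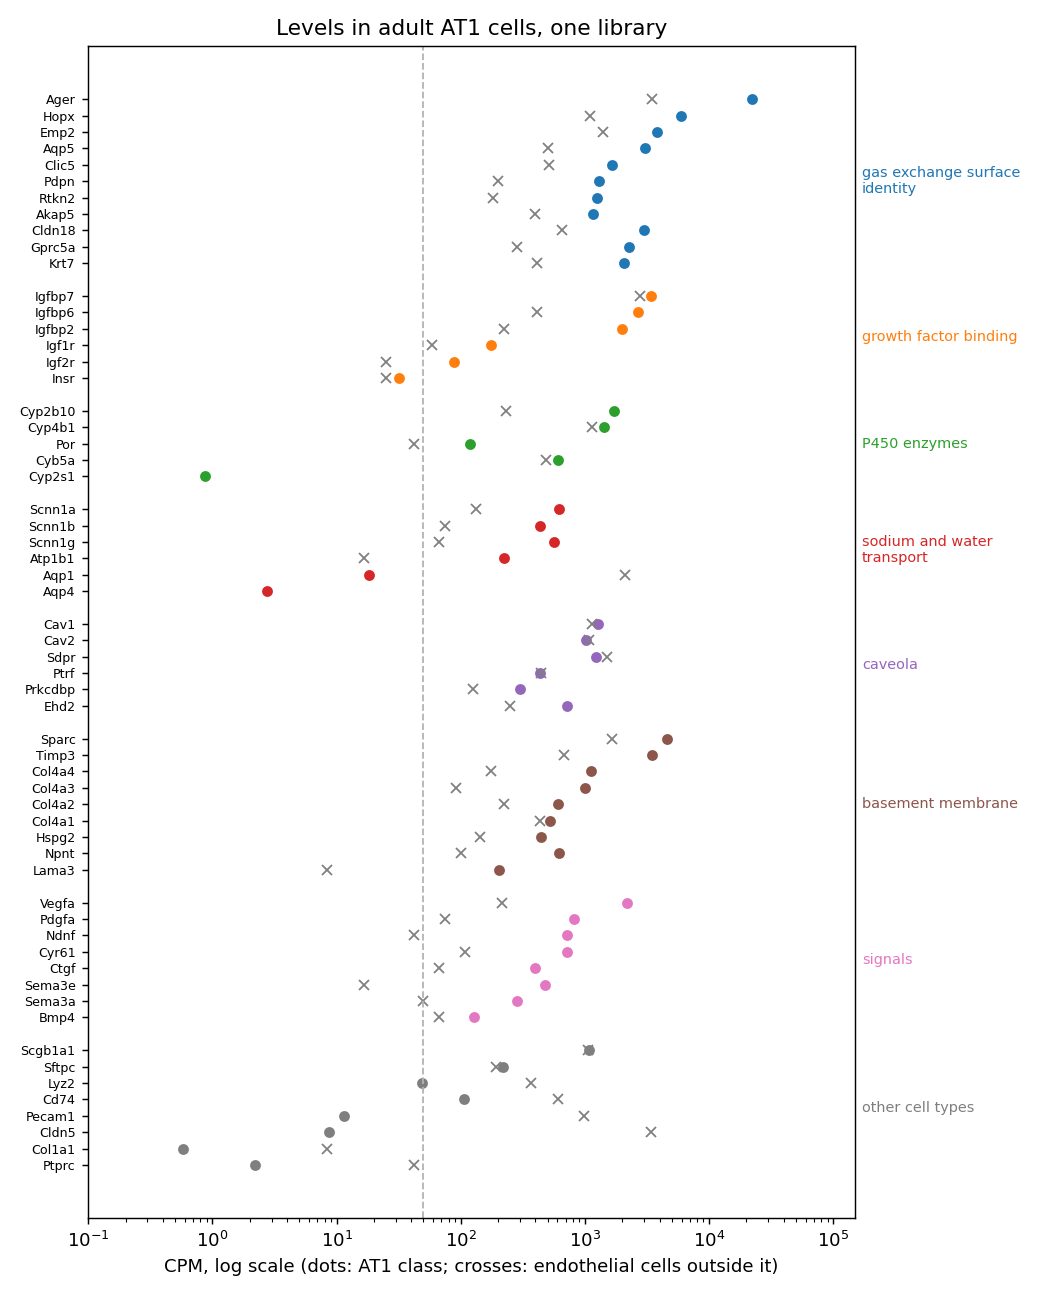
Level of named genes in CPM on a log scale (horizontal axis), grouped by role (vertical axis), with dots for the 1220 AT1 cells summed and grey crosses for the 38 endothelial cells outside the class summed. The dashed line marks 50 CPM. The caveola genes lie near their crosses for Cav1, Cav2, Sdpr and Ptrf, while Cldn5 and Pecam1 lie far below theirs.

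Of 19 listed transcription factors of lung epithelium 8 reached 50 CPM, and after Hopx came Nkx2-1, the lung lineage factor, at 425.2 CPM. Hes1, a Notch target, read 370.7 CPM, Cebpb 216.5, Id3 212.2, Gata6 187.4, Foxa2 130.2 and Foxp1 71.8. Foxa1, Klf5 and Id2 stood between 40.4 and 45.8 CPM. Etv5 and Cebpa, factors of AT2 cells, were low at 1.61 and 0.292 CPM, and Sox2, Sox9 and Elf5 were not listed.

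The Hippo pathway, whose effectors YAP and TAZ act with TEAD factors on stretched cells, was followed as a list of 21 genes, of which 10 reached 50 CPM. Its regulators Wwc1 and Amotl2 read 508.4 and 365.6 CPM and Tead1 469.5 CPM, whereas Yap1 and Wwtr1, which encodes TAZ, read 24.5 and 59.8 CPM. The textbook targets Cyr61, Ctgf and Ankrd1 read 715.5, 396.0 and 220.2 CPM and were among the most uneven genes of the class, described below. Promoter windows of 300 bases around the transcript start are shown for the targets that RefSeq's table (GRCm38.p6, the mm10 assembly) held, since these genes vary between AT1 cells. Capitals mark GGAATG or its reverse complement CATTCC, the core letters of the TEAD motif, searched on both strands. Cyr61 is entered there as Ccn1, at chr3:145649936-145650235 on the minus strand, and Ankrd1 lies at chr19:36119795-36120094 on the minus strand.
Cyr61: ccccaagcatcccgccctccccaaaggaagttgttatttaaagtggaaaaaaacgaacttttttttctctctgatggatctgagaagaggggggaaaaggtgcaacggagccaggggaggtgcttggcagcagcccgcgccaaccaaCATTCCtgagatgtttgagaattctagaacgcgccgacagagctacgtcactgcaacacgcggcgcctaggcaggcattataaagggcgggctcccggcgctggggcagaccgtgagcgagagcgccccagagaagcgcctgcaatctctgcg
Ankrd1: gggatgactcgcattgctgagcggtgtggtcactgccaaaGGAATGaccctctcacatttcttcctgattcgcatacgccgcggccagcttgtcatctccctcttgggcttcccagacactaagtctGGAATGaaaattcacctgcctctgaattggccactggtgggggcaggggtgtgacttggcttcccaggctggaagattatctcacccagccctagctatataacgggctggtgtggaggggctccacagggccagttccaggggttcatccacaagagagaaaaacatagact
The Cyr61 window held 1 match, at -103 from the start, and the Ankrd1 window held 2, at -210 and -123. Of all 32851 promoter windows listed, 14.7% held at least 1, so a match is a common description and names no binding site.

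Of 25 interferon and antigen presentation genes 8 reached 50 CPM, a share near the 27.3% of all listed genes. B2m, H2-D1 and H2-K1 of MHC class I read 1308, 575.9 and 287.5 CPM in the class and 3534, 3334 and 1392 CPM in the endothelial cells. Reads of H2-D1, H2-K1 and related class I genes can be split between near-identical copies. Ifit3 and Ifit1, interferon-induced antiviral genes, read 178.1 and 51.7 CPM and had a UMI in 51.6 and 21.1% of cells, and Ifit3 has a near-identical neighbour copy. Isg15 and Irf7 stood at 35.8 and 6.71 CPM. The promoter windows of the pair are shown because Ifit1 was uneven between cells, with capitals on matches to the interferon-stimulated response element, searched on both strands as GAAA, any 2 bases and GAAA, which reads TTTC, any 2 bases and TTTC on the other strand. Ifit1 lies at chr19:34640639-34640938 and Ifit3 at chr19:34583279-34583578, both on the plus strand of GRCm38.p6.
Ifit1: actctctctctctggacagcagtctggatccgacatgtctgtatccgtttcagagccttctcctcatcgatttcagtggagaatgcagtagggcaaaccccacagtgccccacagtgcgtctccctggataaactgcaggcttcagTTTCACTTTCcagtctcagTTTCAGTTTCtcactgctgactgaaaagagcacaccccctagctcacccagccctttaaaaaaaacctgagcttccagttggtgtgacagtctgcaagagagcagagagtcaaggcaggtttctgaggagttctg
Ifit3: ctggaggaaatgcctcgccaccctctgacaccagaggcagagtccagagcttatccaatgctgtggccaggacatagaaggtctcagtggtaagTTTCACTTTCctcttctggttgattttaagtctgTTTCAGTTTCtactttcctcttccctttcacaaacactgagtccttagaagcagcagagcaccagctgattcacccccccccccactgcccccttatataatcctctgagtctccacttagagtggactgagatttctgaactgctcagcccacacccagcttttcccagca
Each window held 2 matches, at -104 and -85 for Ifit1 and at -156 and -122 for Ifit3, against 3.44% of all windows with at least 1. Across the thinned cells Ifit1 and Ifit3 had a Spearman coefficient of 0.02, and their sparse counts allow nothing to be read from it.

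Protective genes were led by Prdx6, followed by the lipid peroxide reductase gene Gpx4 at 2051 CPM, Selenbp1 at 1135 and Prdx1 at 863.6. Of 22 listed antioxidant genes 13 reached 50 CPM. The inducible genes Hmox1, Mt1 and Mt2 were low, at 5.98, 5.84 and 1.17 CPM. Among chaperones, 11 of 15 reached 50 CPM, with Cryab, a small heat shock protein gene, at 1982 CPM. Hspa1a and Hspa1b, which rise in heat shock, stood at 2.19 and 2.04 CPM. Lysosomal genes reached 50 CPM in 18 of 21 cases, led by Laptm4a at 1430 and Lamp1 at 618.3 CPM.

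Of 15 listed calcium-binding S100 and annexin genes 14 stood at 50 CPM or more, against 27.3% of all listed genes. Anxa3, Anxa5 and Anxa2, which bind membrane phospholipids, lay together at 1208, 1185 and 1100 CPM. Anxa1, linked to resolution of inflammation, read 846.0 CPM. Glucocorticoid and clock genes reached 50 CPM in 9 of 18 cases, with Tef at 257.8, Sgk1 at 230.3 and Tsc22d3 at 196.5 CPM, while the receptor gene Nr3c1 read 167.3 CPM. The clock genes Nr1d1, Per1 and Dbp stood at 54.9, 21.0 and 3.65 CPM.

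Signs of division were near 0. Of the 21 cell cycle genes 10, among them Mki67, Top2a and Cdk1, were not listed, and the file lists no gene with a UMI in fewer than 7 of the 1337 cells. Rrm2 and Tyms stood at 1.61 and 3.50 CPM. Ccnd2, a D-type cyclin, stood apart at 422.0 CPM with a UMI in 75.8% of cells, and the cell cycle inhibitor gene Cdkn1b read 76.0 CPM.

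Variation between cells was measured as the coefficient of variation that remained after Poisson counting noise was taken out, here called extra CV. The expected count was scaled to the depth of each cell. Deeper cells weigh more in this measure, and differences in level that go with depth remain in it. An extra CV of 1 means that, with cells weighed in this way, a gene's level spreads by as much as its mean. Over the 3154 genes at 50 CPM or more with a UMI in at least 5% of cells the median was 0.293 and the 95th percentile 0.586. Most genes were thus close to even, and 21 genes, or 0.666%, reached 1. The cells had been chosen on the rule genes, which narrows the spread of those genes, and these stood between 0.204 for Emp2 and 0.376 for Pdpn.

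**Figure D3:**
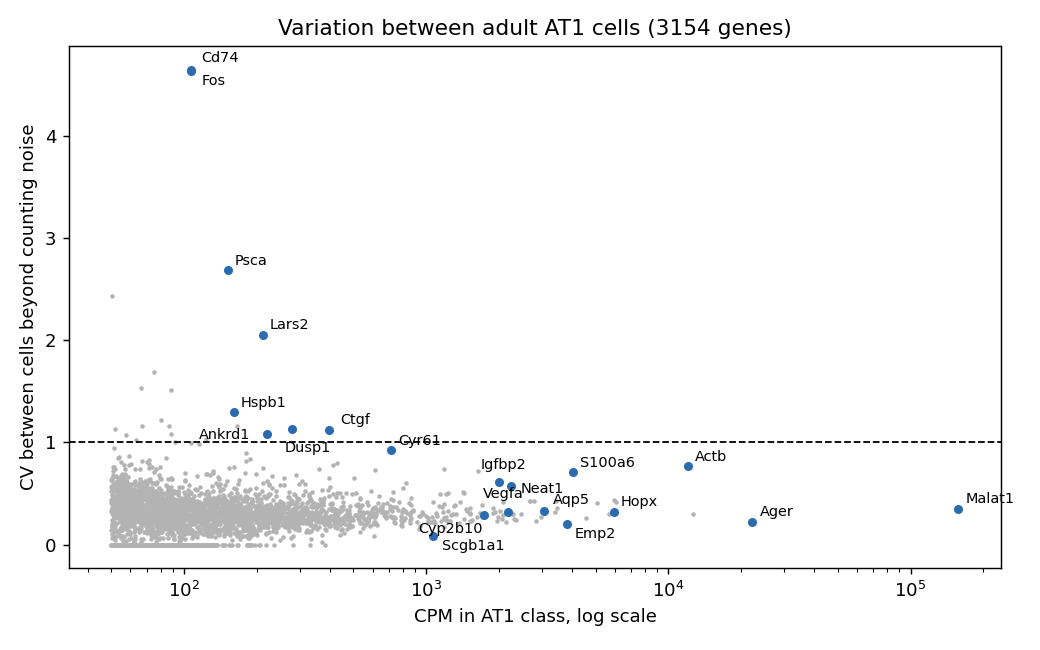
Extra CV between the 1220 AT1 cells (vertical axis) against level in CPM on a log scale (horizontal axis) for 3154 genes, with named genes in blue and the dashed line at an extra CV of 1. Fos, Cd74, Psca and Lars2 lie far above the bulk, and Actb and S100a6 stand out among the abundant genes.

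Among the immediate early genes, which respond to stimuli within minutes, Fos was far above the others in spread. Fos, a subunit of the AP-1 transcription factor, had an extra CV of 4.64 at 106.5 CPM. Only 222 of 1220 cells held a Fos UMI, and 15 cells with 10 or more UMIs held 376 of its 730 UMIs. Of these 15 cells 14 also held a Junb UMI and 15 a Dusp1 UMI, against 30.25 and 62.95% of all 1220 cells. These counts were not thinned, so the depth of a cell enters them. Junb, its partner, had an extra CV of 1.52 and Dusp1, a phosphatase gene of the same response, 1.13. After thinning, a Fos UMI was found in 9.16% of AT1 cells (7.5 to 11) and in 28.0% of endothelial cells (12.1 to 49.4). Ier3 and Jund of the same list were common and even, at 1883 and 964.0 CPM with extra CVs of 0.357 and 0.317. Of 22 listed immediate early genes 12 reached 50 CPM, and 3 of those had an extra CV of 1 or more. Over all genes these shares were 27.3 and 0.666%.

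Cyr61, Ctgf and Ankrd1 formed a second uneven set, with extra CVs of 0.925, 1.13 and 1.09. For Ctgf, a secreted matrix-linked growth factor, the median cell read 232.5 CPM, the 95th percentile 1474 and the highest cell 4200 CPM, and 395 cells held none. Cyr61, its relative, had a median of 517.8 CPM and a 95th percentile of 2130. Ankrd1, an ankyrin repeat gene of muscle and stretched cells, had a median of 122.1 and a 95th percentile of 799.5 CPM. After thinning, a UMI was found in 65.8, 44.3 and 29.6% of AT1 cells for Cyr61, Ctgf and Ankrd1, and in 24, 12 and 8% of endothelial cells. Before thinning the shares in AT1 cells were 85.8, 67.6 and 54.9%. The 3 genes were only weakly tied to each other across cells. Spearman coefficients over 1103 thinned cells were 0.18 for Ctgf with Cyr61, 0.08 for Ctgf with Ankrd1 and 0.05 for Cyr61 with Ankrd1, and counts as sparse as these weaken any coefficient. Other genes of the Hippo list, such as Wwc1 (0.293) and Tead1 (0.336), had extra CVs near the median of all genes.

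Other genes past an extra CV of 1 had UMIs in fewer than 50% of the AT1 cells, which at this depth does not show that the others lack them. Psca, which encodes a lipid-anchored surface antigen, had an extra CV of 2.69 at 151.5 CPM, with a UMI in 32.4% of cells and 5 or more UMIs in 45 cells. Aldh3a1, an aldehyde dehydrogenase gene, had 1.53 at 66.3 CPM, and Ces1d, a carboxylesterase gene, 1.08 at 88.6 CPM. Hspb1, a small heat shock protein gene, had 1.29 and Tmsb10 1.16, and the endothelial cells held both at higher levels, 316.7 and 1858 CPM against 160.3 and 165.1 in the class. The large scaffold gene Ahnak2 had 1.16, Akr1b3 1.03 and Fgfbp1 1.02. Ifit1 had 1.14. Lars2, a mitochondrial leucyl-tRNA synthetase gene, had 2.05, with a 95th percentile of 1515 CPM and a highest cell of 19786 CPM.

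Commd7, Cdh13 and Abhd2 also reached 1 (1.69, 1.07 and 1.22) and, with the remaining genes Hist1h4h at 1.16 and Gm10260 at 2.43, are outside the naming rule and were named after their values were seen. The extra CV of Cd74 was 4.65 but fell to 0.703 without its 5 highest cells, which held 18.9% of its UMIs, and 1 of those cells held 110 Cd74 UMIs. Likewise Commd7 fell to 0 without its 5 highest cells. Fos stood at 4.03 and Psca at 1.89 when their 5 highest cells were left out, and 11 of the 21 genes stayed at 1 or more.

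Below an extra CV of 1 the rule named Slc39a1, Bst2, Hist1h1c, Wfdc2, S100a10, Krt18, Poc1a and Pam, from 0.990 to 0.760. Of these the zinc transporter gene Slc39a1 was the nearest to 1 and the enzyme gene Pam the farthest. Krt18 had 0.798, and its keratin partner Krt8 had 0.651, while Krt7 had 0.288. Wfdc2, a secreted protease inhibitor gene, read 187.4 CPM in the class and 3954 CPM in the AT2 library. Scgb1a1, whose share was not set apart from that in endothelial cells, had an extra CV of 0.0875, among the lowest of genes over 1000 CPM named here.

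Actb was the most uneven gene among those at 1000 CPM or more. Its level in a cell had a 5th percentile of 3627 CPM, a median of 8363 and a 95th percentile of 30575 CPM, and its extra CV was 0.767. There were 698 cells under 10000 CPM and 233 over 20000 CPM, of which 63 exceeded 30000. Of other cytoskeletal genes, Tmsb4x had 0.297, Myl12a 0.296 and the gamma-actin gene Actg1 0.507, while the far less abundant Tmsb10 had 1.16. After thinning, the highest coefficients of Actb were those with Slc39a1 (Spearman 0.31), Pam (0.27), Spry2 (0.27), Nfia (0.26), Abhd2 (0.25) and Pdpn (0.24), chosen after their values were seen, and its coefficient with Ager was -0.18. At clustering resolution 1 a cluster of 104 cells was led by Slc39a1, Abhd2, Pam, Notch2, Paip1 and Actb, and Actb read 23935 CPM there against 10539 CPM in the other cells. Its genes were named after their values were seen. Pdpn read 1948 CPM in that cluster against 1301 CPM in the class as a whole.

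S100a6 had an extra CV of 0.709, with a median of 3232 CPM per cell, a 95th percentile of 9503 and a highest cell of 48928. Its nearest genes over the thinned cells were Lgals3 (0.28), Tmsb4x (0.26) and S100a11 (0.26). S100a10 and S100a11 were also above the median gene in spread, at 0.819 and 0.557.

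Igfbp2, which the rule did not use, was uneven among the abundant genes. The median cell read 1556 CPM, the 5th percentile 169.2 and the 95th percentile 4644, with a highest cell of 12216 CPM, and the extra CV was 0.613. At 2000 UMIs per cell, 107 of 1103 cells held no Igfbp2 UMI, 166 held 1, 158 held 2, and 48 held more than 10, with a mean of 3.94. Counting alone at that mean would leave 21.5 cells without a UMI. The distribution was broad and fell off with no gap, so no group of Igfbp2-negative cells was set apart. Cyp2b10 was even by comparison, with a 5th percentile of 402.3 CPM, a median of 1594, a 95th percentile of 3197 and an extra CV of 0.289. Cyp4b1 had an extra CV of 0.512, with 63 cells at 0. Among the other binding proteins, Igfbp6 had 0.425 and Igfbp7 0.322.

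The correlation of genes across cells was weak in general, and coefficients share the library, the thinning and the fixed total of 2000 UMIs, in which more of one transcript leaves less room for others. Of 4972281 pairs among 3154 genes, 90 had a Spearman coefficient of 0.3 or more and 42 of -0.3 or less, and the 1st and 99th percentiles were -0.07 and 0.08. Hopx was nearest to Tmsb4x (0.45), Prdx6 (0.45), Cryab (0.37), Myl12a (0.36) and Fth1 (0.35), and it was lowest with Malat1 (-0.47) and Neat1 (-0.37). Ager was nearest to Igfbp7 (0.44), Bsg (0.33), Laptm4a (0.33), Tmem59 (0.30) and Aqp5 (0.29). Igfbp2 was nearest to Ager (0.26), Igfbp7 (0.20), Ier3 (0.18), Tmem37 (0.18) and Laptm4a (0.16). The highest coefficients of Cyp2b10 were 0.15 with Ager, 0.15 with Pmp22, 0.14 with Itgb1, 0.12 with Igfbp7 and 0.12 with Aqp5. Coefficients this low for Igfbp2 and Cyp2b10 are given for completeness, and Igfbp2 with Cyp2b10 stood at 0.03.

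**Figure D4:**
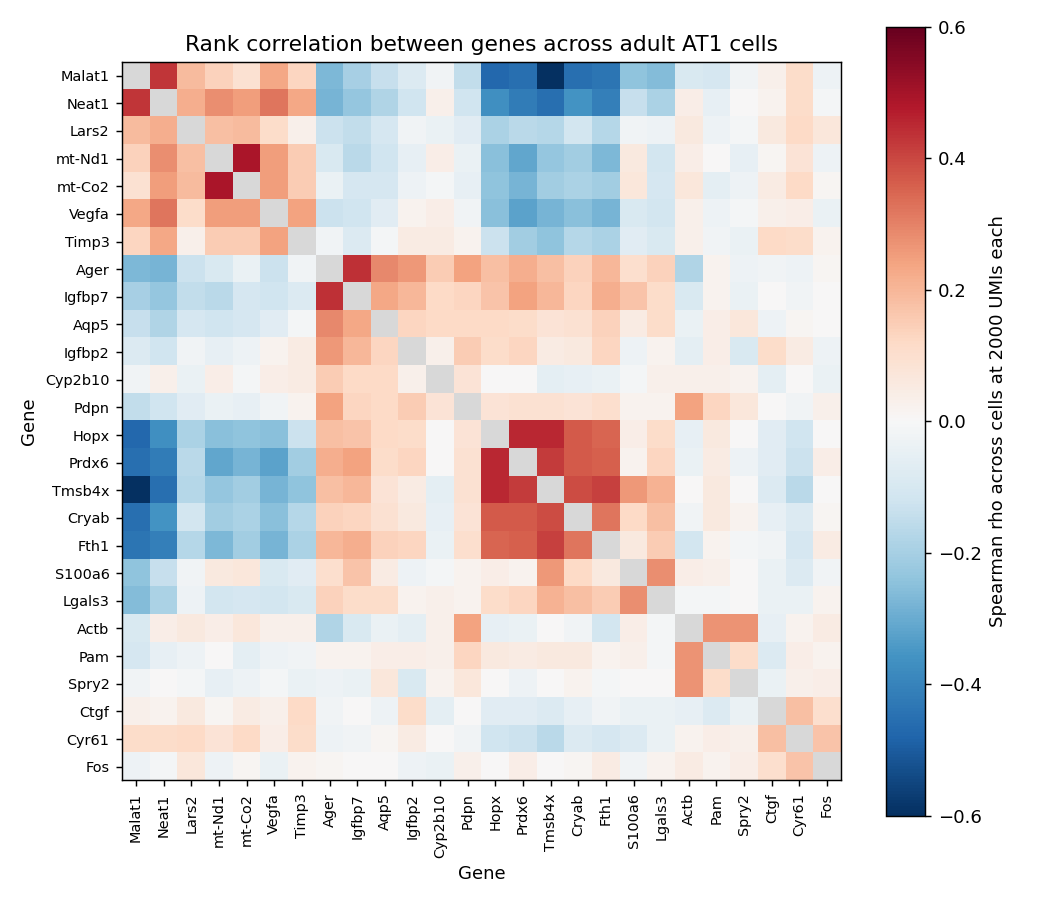
Spearman coefficient between pairs of genes (both axes list the same genes) across 1103 AT1 cells thinned to 2000 UMIs, with red for positive and blue for negative values and the diagonal in grey. Malat1 and Neat1 are positive with each other and negative with a block of Hopx, Prdx6, Tmsb4x, Cryab and Fth1.

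Several RNAs differed in level with the depth of the cell. Malat1 and Neat1, both nuclear, had a coefficient of 0.43, and Malat1 stood at -0.61 with Tmsb4x. Split by depth into 4 sets of 305 cells each, with median UMIs of 2286, 4537, 6359 and 8697, Neat1 read 3728, 2995, 2214 and 1552 CPM and Lars2 872.8, 251.2, 135.7 and 82.8 CPM. Hopx read 4645, 4824, 6075 and 6695 CPM and Igfbp2 1656, 1675, 1978 and 2239 CPM over the same sets. The median mitochondrial share went from 5.23% in the shallowest to 2.29% in the deepest set. Neat1, Lars2 and mitochondrial RNA were therefore higher in shallow cells, and Hopx and Igfbp2 in deep ones. Actb (12462, 10830, 11910 and 12599 CPM) and Cldn18 (2808, 3095, 3014 and 2916 CPM) had no such order. Malat1 (168124, 191624, 158269 and 138647 CPM) was highest in the set with a median of 4537 UMIs and fell in the deeper sets. The shallowest set also draws on a cluster of low Malat1, described below as cluster 3, whose median depth was 1934 UMIs. The part of depth in these orders was not tested.

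Clustering of the class at resolution 0.5 gave 3 clusters, a number that changed with the settings. Their leading genes describe the clusters and are not tested. Cluster 1 held 642 cells with a median of 7264 UMIs and was led by Fos, Sys1, Trappc4, Fosb, Ubb and Atf3, at most 1.86-fold above the other cells. Fos is no trait of all these cells, since 15 cells of the class held 376 of its 730 UMIs. At resolution 1 it led a cluster of 239 cells, at 238.2 CPM against 53.5 in the other cells. Cluster 2 held 472 cells with a median of 3682 UMIs and a median mitochondrial share of 4.29%, led by Lars2 (514.8 against 101.6 CPM), Neat1 (3859 against 1667), Ssh1, Pdgfb, Tnpo2 and Ddx17. Vegfa read 2982 CPM in cluster 2 and 1899 in cluster 1. Outside the rule genes, on whose sum every cell was chosen, Igfbp2 read 2101 and 1595 CPM and Cyp2b10 1725 and 1782 CPM in clusters 1 and 2.

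Cluster 3, of 106 cells, was low in the nuclear RNAs Malat1, Neat1 and Kcnq1ot1, and a general loss of nuclear RNA was not tested. Malat1 read 21921 CPM (21341 to 22512) there against 162850 in the other cells, Neat1 408.3 (332.6 to 496.2) against 2317, and Kcnq1ot1, an imprinted nuclear RNA, 4.04 against 91.2 CPM. The splicing-linked genes Rsrp1 and Luc7l2 and the glycosyltransferase gene Ogt were also low, at 84.9, 76.8 and 28.3 CPM against 439.1, 342.2 and 202.6. Of AT1 genes outside the rule, Igfbp2 read 2826 CPM (2620 to 3044) against 1962, Cyp2b10 1310 (1171 to 1461) against 1740 and Vegfa 1500 (1351 to 1661) against 2197. Higher in this cluster were Bag1 (521.5 against 186.4 CPM), Cyb5r3 (396.2 against 146.4), Naa50, Gcsh, Psph and Vti1b. The ribosomal protein share was 7.80%, against 5.16 and 3.35% in clusters 1 and 2. Malat1 made up 2.19% of UMIs here and 14.2 and 21.7% there. CPM are shares of a total, so less Malat1 raises the CPM of other genes, and its part in these differences was not tested. Median depth was low, at 1934 UMIs. Luc7l2 was named after its values were seen.

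The shift in Malat1 was close to all-or-none in single cells. The median Malat1 share was 0.581% in cluster 3 and 16.4% in the other cells, and 111 of the 1220 cells were under 5%, 99 of them in cluster 3, whereas 106 were under 2%. Markers of other cell types were present in all 3 clusters, and their part in the split was not tested. Over clusters 1, 2 and 3 the AT2 markers summed to 536.1, 562.2 and 485.2 CPM, the endothelial markers to 378.7, 378.1 and 339.6 CPM and the immune markers to 321.7, 221.6 and 270.9 CPM. The club markers summed to 1280, 1159 and 1504 CPM and the ciliated markers to 3280, 2204 and 3954 CPM, both highest in cluster 3. Without cluster 3 the class held 1114 cells, and 20 genes had an extra CV of 1 or more.

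**Figure D5:**
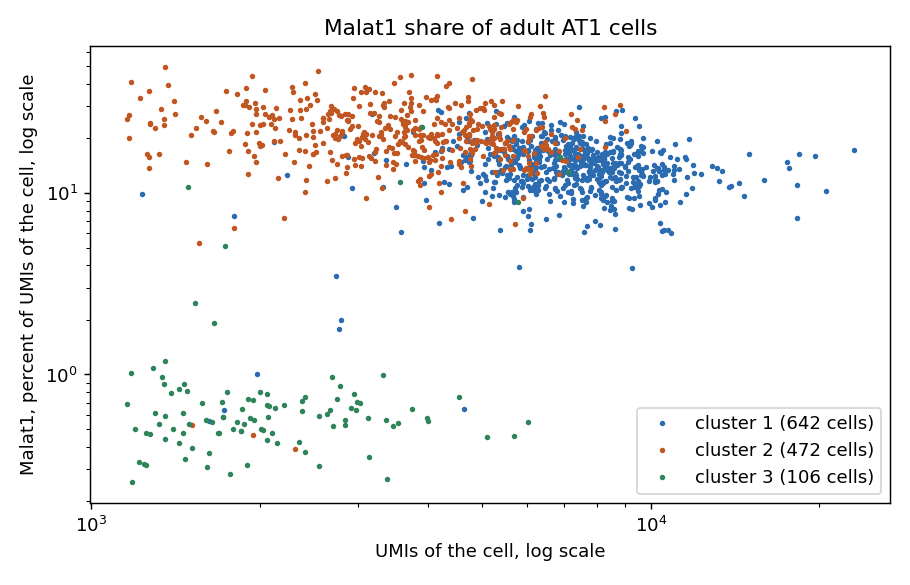
Malat1 as a percent of the UMIs of a cell on a log scale (vertical axis) against the UMIs of the cell on a log scale (horizontal axis) for 1220 AT1 cells, with colours for the 3 clusters. Cluster 3, in green, lies mostly near 0.581%, apart from the other clusters, and cluster 2 holds the shallower of the cells rich in Malat1.

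Cells chosen by the same rule in the AT1 libraries at P3 and P15 numbered 2898 and 2670, and after thinning to 2000 UMIs the spread can be set beside that at P60, with age and library not told apart and no test possible. Igfbp2 had an extra CV of 1.25 at P3, 0.865 at P15 and 0.673 at P60, at levels of 645.3, 1868 and 1993 CPM. Cyp2b10 had 0.920 at P15 and 0.332 at P60, at levels of 1157 and 1725 CPM. Its level at P3, 15.4 CPM, was below the 50 CPM asked for above, and its extra CV there is not given. The rule genes Ager and Hopx had extra CVs of 0.207, 0.218 and 0.275, and 0.355, 0.353 and 0.398. Choosing cells on these genes narrows their spread at each age. Actb was uneven at each age (0.770, 0.943 and 0.749), and so was Ctgf (1.01, 0.898 and 1.09). The median gene had 0.266, 0.317 and 0.347, with Hopx above it and Ager below it at each age.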

How the data were processed

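Single-cell RNA libraries were made from sorted mouse lung cells with the 10x 3' chemistry, 1 library per group, per the labels' protocols. Each deposited table holds natural log values, ln(1 + UMIs per 10000 UMIs of the cell), as the values show. Cell Ranger 1.3.1, Seurat 2.0.0 and the builds mm10 and hg19 are named per the submitters' processing notes, with no role stated for hg19. The members and gene lists were chosen with earlier results of these data known.

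Unlogged values, in units of the smallest step found in their cell, came out as whole UMIs in 100% of cases within 0.05. UMIs were summed over the cells kept and given as CPM of all listed genes, with exact Poisson intervals at 95%. Shares were given after thinning each cell to 2000 UMIs (1103 cells kept, 117 left out), with the shares before thinning beside them. Extra CV is the square root of the variance beyond Poisson counting over the squared mean, with the mean scaled to the depth of each cell. It was tested on simulated data. Clustering used Scanpy 1.11.5 with igraph 0.11.9 (2000 variable genes, 20 components, 15 neighbours, Leiden resolution 0.5), and leading genes were ranked by ratio with a prior of 20 CPM. Sequences come from RefSeq's promoter table (GRCm38.p6) and coordinates from GENCODE on the same assembly. Ctgf was not matched there.

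The genes named are the rule genes and markers, the 25 highest levels, the 20 largest extra CVs among genes at 100 CPM or more in at least 10% of cells, up to 8 members of each list, up to 6 leading genes of each cluster and the 5 highest correlations of Hopx, Igfbp2, Cyp2b10 and Ager. Other names were chosen after their values were seen. No cell was removed for depth, no doublet caller was run and no reporter gene was used.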

Additional observations from a re-analysis of the deposited data

How the results depend on the processing

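Of 30 alternative values for the 5 main results, 24 were counted as close to the value reported and 6 as moved. Those counted as close included cluster numbers of 2 and 4 beside 3. They also included 3710 genes at 50 CPM or more beside 3154, with Malat1 and mitochondrial genes left out of the total. The count of genes with an extra CV of 1 or more moved from 21 to 32 with the cut at 0.25 of the median, to 40 with each cell thinned to 2000 UMIs, of which 14 were among the 21, and to 11 without the 5 highest cells of each gene, all among the 21. The share of cells with an Igfbp2 UMI moved from 90.3 to 95.08% with no thinning and to 74.75% at 1000 UMIs. Resolution 1 gave 7 clusters in place of 3, and resolution 0.25 gave 2. No alternative for the number of clusters gave 3. The class itself held 1242 cells with the cut at 0.25 and 1110 with it at 0.75. Without 220 cells set aside for markers of other cell types, 17 genes had an extra CV of 1 or more and 4 clusters were found. These 220 were not all cells with such markers, since 771 cells held 3 or more ciliated markers. The 964 cells with at least 3000 UMIs also gave 4 clusters. The alternative without cluster 3 was chosen after seeing the data. Low counts limit the extra CV of genes near 50 CPM, and endothelial shares rest on 25 cells. No paired analysis was possible because each group has 1 library and no test was made.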
